A study of Mus musculus with 6 samples.

Results

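The comparison described here sets fibro/adipogenic progenitors (FAPs) from injured mouse muscle treated with 5'ss-VMO against the same cells treated with control VMO. It rests on 4 of the 6 arrays of the study, chosen by their labels: 2 arrays per group, each with RNA of cells pooled from 4 mice. All cells came from male C57Bl/6 mice aged 8 to 12 weeks whose tibialis anterior muscles had been injured with 30 µL of 50% glycerol, so the controls carry the injury too. Injury came first, the morpholino followed after 3 days, and FAPs were harvested 2 days later; no uninjured or uninjected muscle was included. The mice were wild type. The remaining 2 arrays, from muscles treated with pA-VMO, entered the fit to estimate the spread and serve as the second reagent below.

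FAPs are the mesenchymal stromal cells of skeletal muscle. They carry the receptor PDGFRα, multiply after injury, support muscle stem cells, and can become fibroblasts or adipocytes. A vivo-morpholino (VMO) is an antisense oligomer with a delivery group that lets it enter cells in the animal, where it covers a chosen site of an RNA. Here the sites lie on the transcript of Pdgfra: covering a 5' splice site was meant to favour a shortened transcript that ends inside an intron, and covering the intronic polyadenylation sites (pA-VMO) was meant to do the opposite. The morpholino was given to the muscle, so other muscle cells met it as well. Many results below concern interferon-stimulated genes. Interferons bind receptors on the cell surface, JAK kinases then activate STAT and IRF factors, and these bind short promoter elements, the interferon-stimulated response element (ISRE) and the gamma-activated site (GAS).

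The values are log2 signals. Of 19938 genes with a probe set of their own, 14953 whose mean over the 6 arrays reached log2 5.209, the 25th percentile, were tested. A change is the mean of the 5'ss-VMO arrays minus the mean of the control arrays on the log2 scale, and a gene is called where limma's Benjamini-Hochberg adjusted p is under 0.05. Within a group, the 2 arrays differed with an SD over genes of 0.13 for control VMO and 0.129 for 5'ss-VMO. The median standard error of a change was 0.074. Markers of FAPs were present: all 25 list members on the array passed the floor, among them Pdgfra (11.24 to 11.37 on the 4 arrays), Dcn, the proteoglycan decorin (12.86 or more), and Cd34 (10.6 to 10.87). Ly6a, the gene of the FAP surface marker Sca-1, has no probe set of its own here and was not read. Of the neutrophil markers 8 of 13 lay below the floor, of the T, B and NK cell markers 7 of 20, of the macrophage markers 3 of 29 and of the endothelial markers 2 of 22. That floor is a rank among genes and not a limit of detection.

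In all 87 genes (0.582% of those tested) were called, 75 higher (0.502%) and 12 lower (0.0803%) with 5'ss-VMO. The higher calls were mostly modest, from 0.38 to 1.39 with a median of 0.57, and 5 of them reached 1. In each of the 75 both treated arrays exceeded both controls, which was so for 23.2% of all genes. In each of the 12 both lay lower, as in 21.5% of all genes. Genes were called on these same arrays, so this was favoured in advance and lends no support. Of the 75 higher calls 29 belong to 5 lists of interferon-linked genes: the Ifi200 family, nucleic acid sensors, antiviral effectors, the Schlafen family and interferon-induced GTPases. Those lists together had 80 tested members. Their median change was 0.35, against 0.00 over all genes tested. Of these members 74 lay above 0, and in 68 both treated arrays exceeded both controls. The gene lists, here and below, were chosen with earlier results of these data known. Setting them against all genes is therefore no independent test. Of the 75, Lrrn1, Ifi209 and Ms4a6b had control means below the floor and entered the test through the other arrays. For Lrrn1 the pA-VMO mean of 5.09 lay below the floor too. It entered only through the 5'ss-VMO arrays, where it is high, so its calls lend no support. An unadjusted p under 0.05 was found for 2079 genes (13.9%). Counts of calls in single lists below are to be set against the 0.502% of all genes called higher and the 0.0803% called lower. Counts of unadjusted p under 0.05 in these lists are to be set against the 13.9%. Some, such as 4 of 36 immediate early genes, lay below it. The counts of higher and lower calls were 22 and 2 with no filter on dim genes, 141 and 40 with genes at or above the median level, 200 and 66 with an intensity trend in limma's prior, and 0 and 0 with all probe sets fitted together. With 1 array left out they were 7 and 1 without control replicate 1, 25 and 1 without control replicate 2, 36 and 6 without 5'ss-VMO replicate 1, and 23 and 8 without 5'ss-VMO replicate 2. For the interferon-linked members called higher they were 5, 10, 8 and 9 in that order. No call changed sign in these fits. None could, because in every call the arrays of the 2 groups did not overlap.

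**Figure D1:**
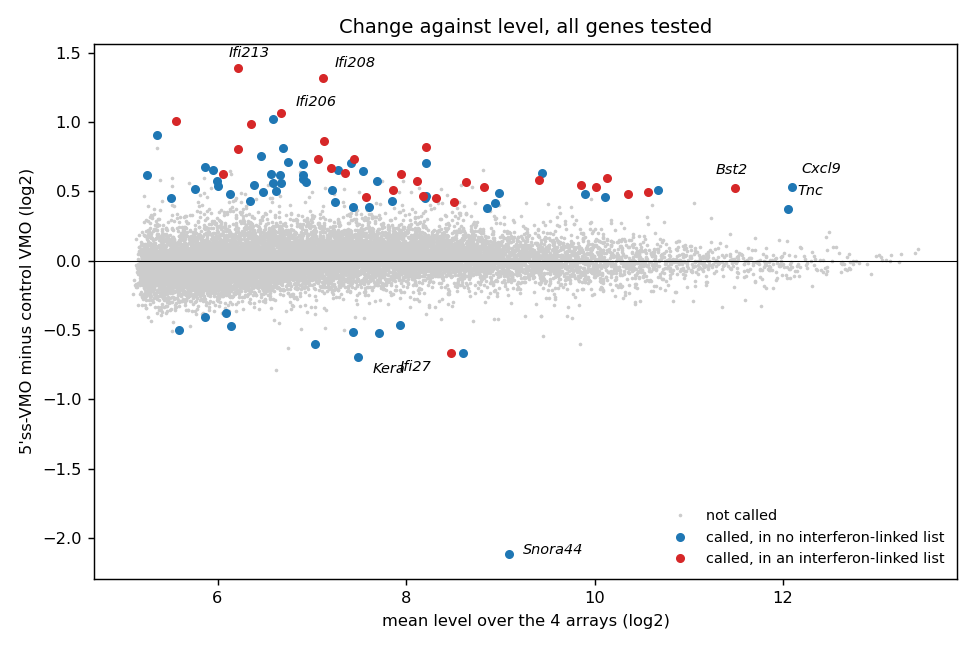
Change of each of the 14953 tested genes (5'ss-VMO minus control VMO, log2) against its mean level over the 4 arrays (log2); called genes are in colour, red for members of the 5 interferon-linked lists. The higher calls had control means of 4.9 to 11.86, while Snora44 lies alone at -2.12.

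The 3 largest rises were those of neighbouring Ifi200 genes, interferon-inducible proteins of which several bind DNA. Ifi213 lay at 5.69 and 5.36 on the control arrays and at 6.95 and 6.88 on the 5'ss-VMO arrays, a rise of 1.39 ± 0.129 (SE; 2.62-fold, 95% interval 1.1 to 1.68, adjusted p = 0.00382). Ifi208 went from 6.56 and 6.38 to 7.7 and 7.87, a rise of 1.32 ± 0.1 (2.49-fold, adjusted p = 0.0016). Ifi206 went from 6.13 and 6.16 to 7.23 and 7.18, a rise of 1.06 ± 0.069 (2.09-fold, adjusted p = 0.0012). For these genes the gap between the groups was several times the distance between the arrays of a group. Ifi209 lay at 4.91 and 5.2 with control VMO and at 5.93 and 6.19 with 5'ss-VMO and rose by 1.00 (adjusted p = 0.0104; 0.86 to 1.15 with 1 array left out, adjusted p up to 0.103). The family did not move as one. Of its 8 tested members the other 4 were not called: Ifi203 at 0.11 (95% interval -0.06 to 0.29), Ifi202b at 0.10 (-0.22 to 0.41), Ifi205 at -0.05 (-0.22 to 0.12) and Ifi207 at -0.05 (-0.2 to 0.11). Aim2, the inflammasome DNA sensor of the family, and Ifi214 lay below the floor and were not tested.

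The 3 genes with the largest rises share a promoter stretch, shown here because it holds the ISRE core (GAAA, any 2 bases, GAAA), in capitals. The windows are 50 bases long and read 5′ to 3′ on the strand of the gene, from RefSeq (GRCm38.p6):
Ifi213: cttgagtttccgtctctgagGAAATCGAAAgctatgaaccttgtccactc
Ifi208: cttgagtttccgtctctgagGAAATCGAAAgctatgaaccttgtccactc
Ifi206: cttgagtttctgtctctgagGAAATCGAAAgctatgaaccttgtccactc
They lie at chr1:173599316-173599365 on the minus strand for Ifi213, chr1:173673587-173673636 on the plus strand for Ifi208 and chr1:173491329-173491378 on the minus strand for Ifi206. The core starts 73, 58 and 40 bases before the respective gene starts. The windows of Ifi213 and Ifi208 are identical over 50 bases, and each shares 49 with that of Ifi206. Aligned on the core, the promoters of Ifi213 and Ifi208 match at 282 of 285 bases (98.9%), Ifi213 and Ifi206 at 236 of 267 (88.4%) and Ifi208 and Ifi206 at 253 of 282 (89.7%). Probes of such close paralogs may read each other's transcripts, so it is uncertain how much each gene contributed.

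Sensors of RNA and of unusual nucleic acids formed the next list. Of its 17 tested members 5 were called, all higher, 16 lay above 0 and the median change was 0.32. Oas2, which makes the second messenger that activates RNase L, lay at 7.78 and 7.83 with control VMO and at 8.62 and 8.63 with 5'ss-VMO. It rose by 0.82 ± 0.066 (1.76-fold, adjusted p = 0.00215). Its neighbours Oas1b and Oas1a rose by 0.63 and 0.58 (adjusted p = 0.00551 and 0.0415). Dhx58, the RIG-I-like helicase LGP2, rose from 7.64 on both control arrays to 8.18 and 8.35, by 0.62 (adjusted p = 0.0105). Zbp1, a sensor of Z-form nucleic acid that can start necroptosis, rose by 0.58 (9.1 and 9.13 to 9.72 and 9.67, adjusted p = 0.0105). Mlkl, which carries out necroptosis by opening the plasma membrane, rose by 0.38 (adjusted p = 0.048). The receptors that feed interferon induction lay lower in the order and were not called: Ddx58, the gene of RIG-I, at 0.32 (adjusted p = 0.0707), Ifih1, the gene of MDA5, at 0.26 (0.169) and their common adaptor Mavs at -0.01 (95% interval -0.16 to 0.14). The DNA sensor gene Cgas lay at 0.02. The editing enzyme Adar lay at 0.36 (adjusted p = 0.0534). The endosomal RNA receptor gene Tlr7 lay below the floor and was not tested, at 4.7 and 4.88 with control VMO and 5.32 and 5.46 with 5'ss-VMO.

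Antiviral effectors were the longest of these lists, with 14 of 37 tested members called higher, 1 lower and a median change of 0.34. Mx1, a GTPase that blocks viral ribonucleoprotein, spread widely within the control group, at 5.65 and 6.08, against 6.77 and 6.93 with 5'ss-VMO. It rose by 0.99 ± 0.149 (adjusted p = 0.0276) and held its call in 1 of the 4 fits with 1 array left out. Phf11a lay at 5.95 and 5.69, then 6.65 and 6.59, and rose by 0.81 (adjusted p = 0.0104). The Ifit genes code for proteins that bind foreign RNA ends. Ifit3b rose by 0.73 (6.63 and 6.78 to 7.4 and 7.47, adjusted p = 0.0131), Ifit2 by 0.73 and Ifit3 by 0.59. Ifit1 of the same family was not called, at 10.57 and 10.8 with control VMO and 10.71 and 10.67 with 5'ss-VMO (0.01, adjusted p = 0.979). Trim30d and Trim30a, regulators of inflammatory signalling, rose by 0.67 and 0.54. Usp18, the enzyme that removes ISG15 from proteins and damps receptor signalling, rose by 0.53, from 8.52 and 8.6 to 9.1 and 9.07 (adjusted p = 0.0131). Bst2, which tethers budding virus, rose by 0.52, from 11.27 and 11.18 to 11.77 and 11.73. Xaf1, Rnf213, Ifi27l2a, Herc6 and Samd9l rose by 0.42 to 0.57. Among the members not called, Ifitm1 lay at 0.13, Lgals3bp at 0.10 and Ifitm2 at -0.07. The 1 member called lower was Ifi27, which lay at 8.78 and 8.84 with control VMO and at 8.14 and 8.15 with 5'ss-VMO and fell by 0.67 (adjusted p = 0.00802), while its neighbour on chromosome 12, Ifi27l2a, rose by 0.48 (adjusted p = 0.0166). Isg15, Ifi44, Ifit1bl1 and Phf11b have no probe set of their own here and were not read.

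Of the interferon-induced GTPases, which attack vacuoles of intracellular microbes, and of the Schlafen genes a minority of members were called. Most of the others lay above 0 too. All 11 GTPase genes on the array were tested and 3 were called higher: Gbp4 by 0.86 (6.51 and 6.9 to 7.54 and 7.59, adjusted p = 0.0344), Gbp9 by 0.63 (7.01 and 7.08 to 7.66 and 7.69, adjusted p = 0.00551) and Gbp3 by 0.53 (adjusted p = 0.0151). Gbp8 lay at 0.64 (adjusted p = 0.0625), Gbp5 at 0.41 and Gbp11 at 0.46. The immunity-related GTPases Iigp1, Irgm1 and Irgc1 lay at 0.17, 0.09 and -0.25 and were not called. The list's median was 0.41, and 10 of the 11 lay above 0. Of 7 tested Schlafen genes, which include restriction factors for viral translation, 3 were called and all 7 lay above 0, with a median of 0.39. Slfn9 rose by 0.51, Slfn10-ps by 0.46 and Slfn8 by 0.45 (adjusted p = 0.0415, 0.0272 and 0.0415), while Slfn5 lay at 0.12 (adjusted p = 0.451). Guanylate-binding and Schlafen genes have close paralogs, and the reading of a single member is uncertain for them too.

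**Figure D2:**
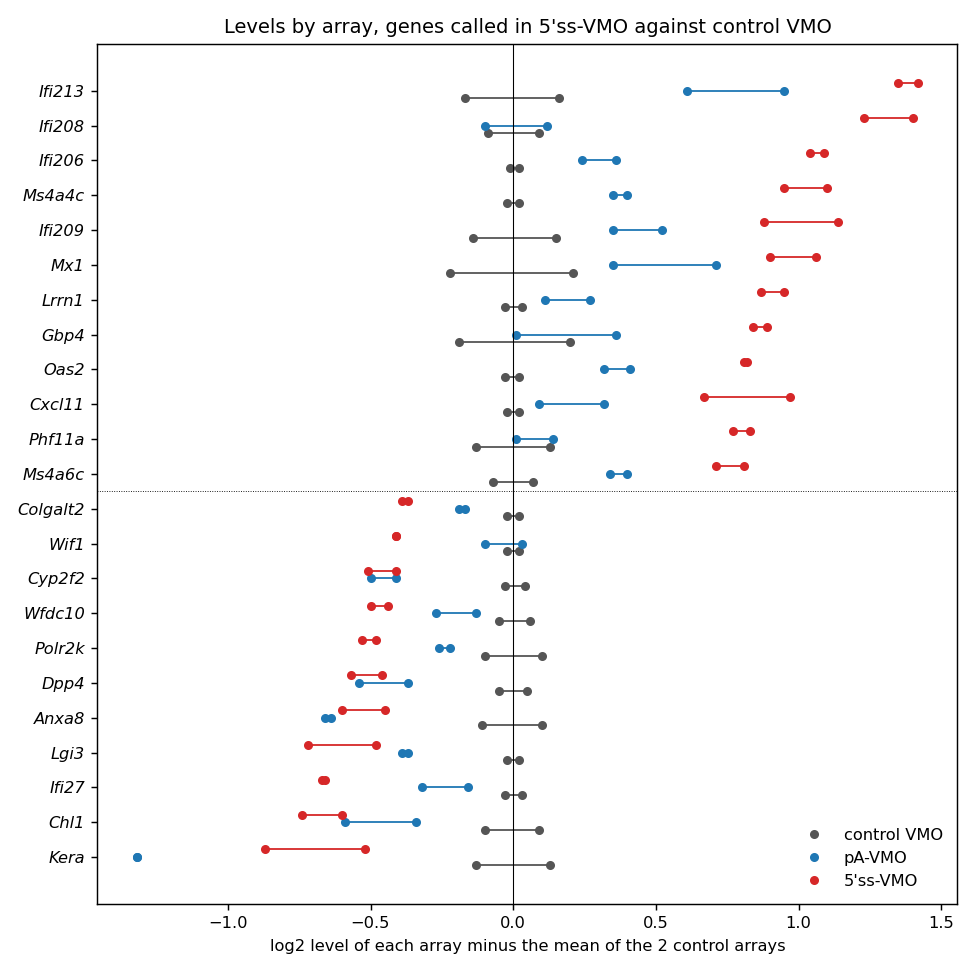
Level of each array minus the mean of the control arrays (log2) for called genes: the 12 named with the largest rises and the 11 named that were lower. Points are arrays, and lines join the 2 arrays of a group. The red 5'ss-VMO points stand clear of the grey control points in every row, which the choice of called genes favoured in advance. For Ifi208 the pA-VMO points lie among the controls, and for Kera they lie below the 5'ss-VMO points.

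The genes that carry the interferon signal were read next. Of 21 tested JAK, STAT and IRF factors 2 were called, both higher. Stat2, a part of the complex that binds the ISRE, lay at 8.76 and 8.72 and then at 9.18 and 9.27 and rose by 0.49 (adjusted p = 0.0166). Irf7, which amplifies interferon production, lay at 10.39 and 10.45 and then at 10.93 on both arrays and rose by 0.51 (adjusted p = 0.0283). Irf9, the third subunit of the ISRE-binding complex, lay at 0.26 (adjusted p = 0.157) and Irf1 at 0.23 (0.251). Nmi, a partner of STAT proteins that is itself interferon-induced, rose by 0.43 (adjusted p = 0.0356). Among the interferons and their receptors limma called 0 of 14 tested members (2 with an unadjusted p under 0.05), with a median of -0.04. The type I receptor genes Ifnar1 and Ifnar2 lay at -0.05 (95% interval -0.2 to 0.1) and -0.04 (-0.2 to 0.11), and Ifngr1 and Ifngr2 at 0.13 (-0.05 to 0.31) and 0.07 (-0.08 to 0.21). Ifng lay at 0.26 (5.31 and 5.27 to 5.56 and 5.54, adjusted p = 0.181). Ifnb1 was below the floor, at 4.97 and 5.19 with control VMO and 5.05 and 4.93 with 5'ss-VMO, and the groups overlapped.

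Antigen presentation and chemokine genes showed the same direction in part of their members. In the class I list 1 of 20 tested members was called: H2-T24, a non-classical class I gene, rose by 0.62 (6.14 and 6.37 to 6.84 and 6.91, adjusted p = 0.022). The peptide pump gene Tap1 lay at 0.41 (adjusted p = 0.0575) and the immunoproteasome genes Psmb9, Psmb10 and Psmb8 at 0.35, 0.34 and 0.28 (adjusted p = 0.0954, 0.108 and 0.138). The classical genes H2-K1 and H2-D1 have no probe set of their own and the list's median was 0.07. For class II, presented by professional antigen-presenting cells, limma called 0 of 9 (6 with an unadjusted p under 0.05), with a median of 0.36. Cd74, the invariant chain, lay at 0.53 (adjusted p = 0.0636) and H2-Ab1 at 0.47 (adjusted p = 0.0878). Of the 9 members 6 lay above 0 and 3 below. H2-Ob fell, at -0.23 (adjusted p = 0.332), and was among those with an unadjusted p under 0.05. Of 29 chemokine genes 3 were called, all higher. Cxcl9 and Cxcl11 code for ligands of CXCR3, which draws T cells. Cxcl9 rose by 0.53 from 11.81 and 11.85 to 12.37 and 12.35 (adjusted p = 0.0131), and Cxcl11 by 0.81 from 6.26 and 6.3 to 6.95 and 7.25 (adjusted p = 0.0151). The third CXCR3 ligand, Cxcl10, lay at 0.14 (95% interval -0.03 to 0.31, adjusted p = 0.446). Ccl11, the eosinophil chemokine, rose by 0.46 (adjusted p = 0.0422). In the list of acute-phase and IL-1 genes limma called 0 of 20 (4 with an unadjusted p under 0.05; median 0.10), where Il1b lay at 0.64 (adjusted p = 0.0524).

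Of the Ms4a family, membrane proteins of which several are carried by myeloid cells, 5 of 12 tested members were called higher. Of the macrophage markers 3 of 26 were, against 0.502% of all genes tested. Ms4a4c rose by 1.02 ± 0.073, from 6.06 and 6.1 to 7.18 and 7.03 (2.03-fold, adjusted p = 0.0014). Ms4a6c rose by 0.76 (6.01 and 6.15 to 6.89 and 6.79, adjusted p = 0.00551), Ms4a6b by 0.62, Ms4a6d by 0.54 and Ms4a4d by 0.48. The median over the 12 tested members was 0.47. Mpeg1, the pore-forming perforin-2 of macrophages, rose by 0.70 (7.85 and 7.87 to 8.51 and 8.62, adjusted p = 0.00551). The macrophage markers called were Cybb, the catalytic subunit of the phagocyte oxidase, by 0.56, C1qc by 0.50 and C1qa by 0.39 (adjusted p = 0.0272, 0.0249 and 0.0472). The list's median was 0.18 and 22 of 26 lay above 0. In 18 of the 26 both treated arrays exceeded both controls, against 23.2% of all genes. Defining markers were among those not called: Adgre1, the gene of F4/80, lay at 0.45 (adjusted p = 0.108), Csf1r at 0.14 (0.542), Cd68 at 0.19 (0.26) and Lyz2 at 0.33 (0.409). Cx3cr1 lay at -0.16 and Gpnmb at -0.09. Ly86 and Cd52, genes of leukocyte surface proteins, rose by 0.59 and 0.71 (adjusted p = 0.0331 and 0.0472).

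The level of the macrophage list was set beside that of the interferon-linked lists in each array. Over the 29 macrophage markers on the array the mean log2 level was 6.34 and 6.48 with control VMO, 6.61 and 6.59 with 5'ss-VMO, and 6.55 and 6.56 with pA-VMO. Over the 94 interferon-linked genes on the array it was 7.68 and 7.74, then 8.03 and 8.04, and 7.76 and 7.83 with pA-VMO. With pA-VMO the macrophage level lay near that with 5'ss-VMO, and the interferon-linked level lay closer to control. Single macrophage markers differed in this. With pA-VMO, Lyz2 and Cd68 lay 0.44 and 0.35 above control, C1qc and C1qa 0.17 and 0.03. With 5'ss-VMO, the same genes lay 0.33, 0.19, 0.50 and 0.39 above control. Control replicate 1 held the lowest level of both lists; Lyz2 lay at 8.1 there and at 8.72 on control replicate 2. In bulk samples a change in the number of cells of a type and a change in RNA per cell cannot be told apart, and the part of other cells in the rises above was not tested.

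**Figure D3:**
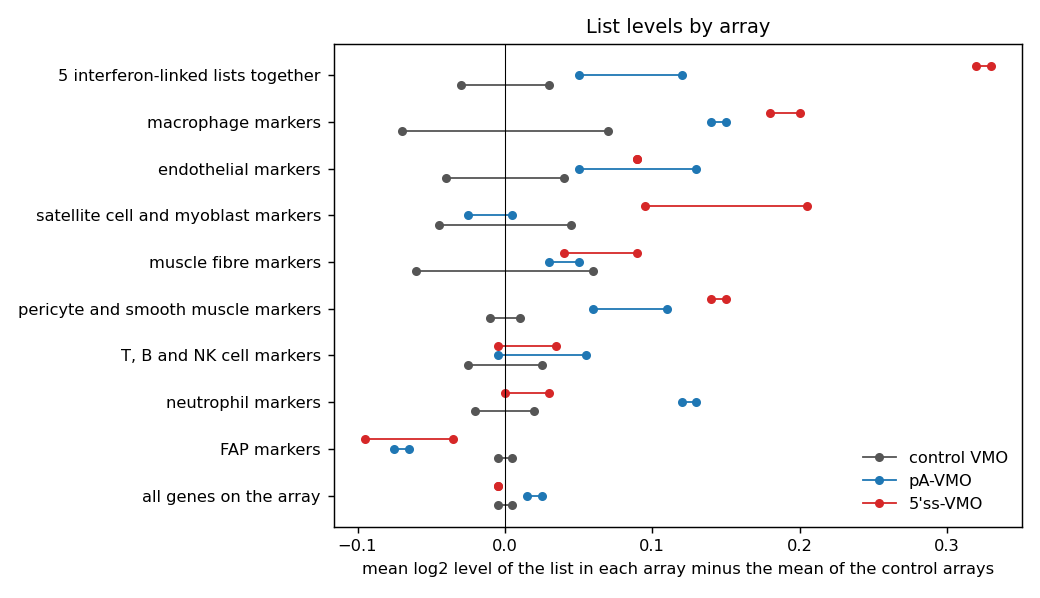
Mean log2 level of each gene list in each array minus the mean of the control arrays; points are arrays, lines join the 2 arrays of a group. For the interferon-linked genes both 5'ss-VMO points (levels of 8.03 and 8.04) lie above both pA-VMO points (7.76 and 7.83); the macrophage points of both reagents lie above both control points.

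Promoters were read because the called genes moved together. The ISRE core was searched as GAAA, any 2 bases, GAAA on both strands, and the GAS as TTCNNNGAA, whose reverse complement is the same, from 250 bases before to 50 after each RefSeq gene start (GRCm38.p6). Of the 75 genes called higher 50 had a promoter in the table, and 17 of these (34.0%) held an ISRE core, against 419 of 11753 tested genes (3.57%) and 3.44% of all 32851 promoters of that length. The GAS was in 5 of the 50 and in 8.04% of tested genes. Among the called members of the interferon-linked lists 13 of 19 (68.4%) held the ISRE core, and among the members tested and not called 17 of 40 (42.5%). Of the 31 other genes called higher with a promoter 4 held it: Parp11, Asb5, Cybb and Stat2. Of the 7 genes called lower with a promoter, Dpp4 and Chl1 held it (28.6%). Paralogs with the same or nearly the same stretch, such as Ifi213, Ifi208 and Ifi206 or Ifit3 and Ifit3b, are counted separately. The matches behind these shares are therefore not independent. A match is a run of letters and not a shown binding site. The windows below show the form the match takes in genes described above, in capitals, on the strand of each gene, where TTTC, any 2 bases, TTTC is the core read on the other strand:
Ifit3b: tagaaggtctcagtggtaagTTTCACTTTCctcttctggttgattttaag
Phf11a: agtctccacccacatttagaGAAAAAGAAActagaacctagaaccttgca
Trim30d: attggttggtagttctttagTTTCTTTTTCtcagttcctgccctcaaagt
Oas1a: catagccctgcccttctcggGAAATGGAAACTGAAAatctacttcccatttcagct
Gbp3: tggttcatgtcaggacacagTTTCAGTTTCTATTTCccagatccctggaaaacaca
Bst2: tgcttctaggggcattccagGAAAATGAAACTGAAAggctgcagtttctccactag
Slfn9: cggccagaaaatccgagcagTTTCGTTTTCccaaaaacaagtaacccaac
Slfn8: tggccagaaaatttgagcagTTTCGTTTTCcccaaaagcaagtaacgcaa
Stat2: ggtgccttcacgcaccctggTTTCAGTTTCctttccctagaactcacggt
Dpp4: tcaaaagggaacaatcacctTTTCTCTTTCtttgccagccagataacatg
They lie at chr19:34607749-34607798 (plus strand) for Ifit3b, chr14:59297522-59297571 (minus) for Phf11a, chr7:104507861-104507910 (minus) for Trim30d, chr5:120907510-120907565 (minus) for Oas1a and chr3:142559979-142560034 (plus) for Gbp3. The others lie at chr8:71537567-71537622 (minus) for Bst2, chr11:82991846-82991895 (minus) for Slfn9, chr11:83020829-83020878 (minus) for Slfn8, chr10:128270256-128270305 (plus) for Stat2 and chr2:62412254-62412303 (minus) for Dpp4. In Oas1a, Gbp3 and Bst2 a pair of matches overlap into a run of 16 bases. Ifit3b holds its matches 188 and 154 bases before the start, and Ifit3 holds the same pair, with 50 of 50 bases of the first window identical. Of the 24 matching stretches in the 19 called genes, 21 began within 200 bases before the gene start, with a median distance of 50.

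**Figure D4:**
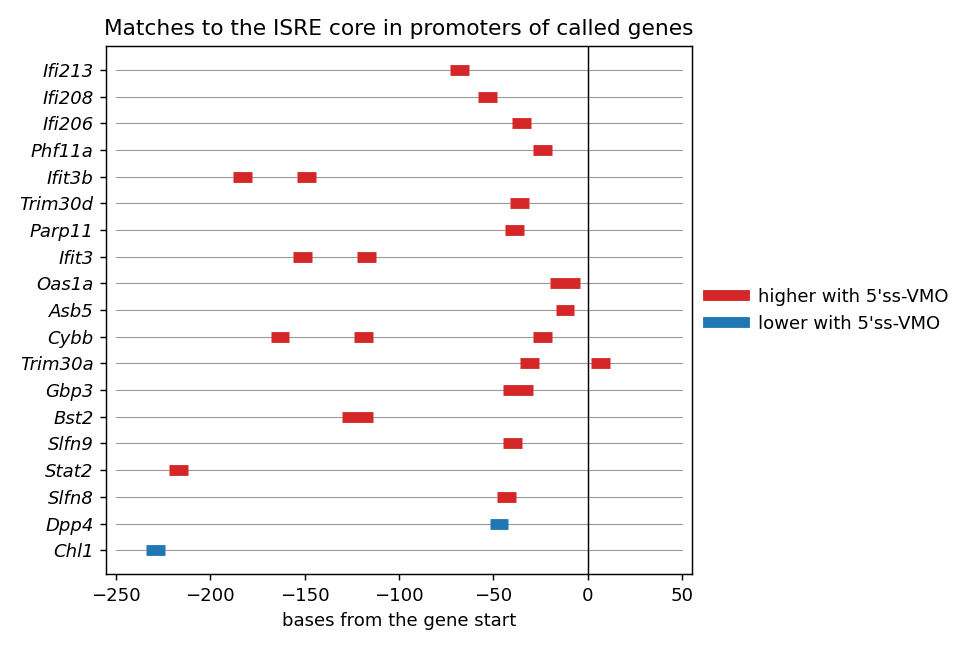
Position of each match to the ISRE core in the promoters of called genes, in bases from the gene start (0); grey lines mark the part searched. Most of the matches in genes that rose lie close before the start, and the matches of Ifit3 and Ifit3b come in pairs.

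Beside Ifi27 and the small RNA Snora44, 10 genes were called lower. Kera, the proteoglycan keratocan, lay at 7.97 and 7.71 with control VMO and at 6.97 and 7.32 with 5'ss-VMO, and fell by 0.69 ± 0.12 (1.62-fold lower, adjusted p = 0.0474). Its 2 treated arrays differed by more than its control arrays did. Chl1, a cell adhesion molecule of the L1 family, went from 9.03 and 8.84 to 8.34 and 8.2 and fell by 0.67. Lgi3, a secreted leucine-rich protein, went from 7.32 and 7.36 to 6.62 and 6.86 and fell by 0.60. Dpp4, the surface peptidase of progenitor-like fibroblasts, went from 7.74 and 7.64 to 7.12 and 7.23 and fell by 0.52 (adjusted p = 0.0318). In all of these both treated arrays lay below both control arrays. Anxa8, a phospholipid-binding annexin, went from 8.08 and 7.87 to 7.53 and 7.38 and fell by 0.52. The cytochrome P450 gene Cyp2f2 went from 8.2 and 8.13 to 7.75 and 7.65 and fell by 0.46. Colgalt2, a collagen galactosyltransferase, went from 6.3 and 6.26 to 5.91 and 5.89 and fell by 0.38. In each the arrays of a group lay closer together than the groups. Wif1, which binds and blocks Wnt ligands, fell by 0.41, from 6.05 and 6.09 to 5.66 on both arrays (adjusted p = 0.0415). The RNA polymerase subunit gene Polr2k went from 5.74 and 5.94 to 5.36 and 5.31 and fell by 0.50, and Wfdc10 from 6.32 and 6.43 to 5.93 and 5.87, by 0.47. None of these 10 was called in all 4 fits that left out 1 array; their adjusted p reached 0.14 to 0.239 in those fits.

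Related lists held no further calls. Of 20 markers of Dpp4-type progenitors Dpp4 was the 1 called and 14 lay below 0, with a median of -0.11. In 11 of the 20 both treated arrays lay below both controls, against 21.5% of all genes. Sema3c lay at -0.42 and Efhd1 at -0.45 (adjusted p = 0.0707 for both). Of 13 secreted Wnt antagonists 11 lay below 0, with a median of -0.12. In 9 of the 13 both treated arrays lay below both controls (21.5% of all genes). Sfrp4 lay at -0.40 (adjusted p = 0.176) and Dkk1 at -0.30 (0.134). Small leucine-rich proteoglycans had a median of -0.07, with Lum, the proteoglycan lumican, at -0.33 (11.94 and 11.92 to 11.6 on both arrays, adjusted p = 0.0636). FAP markers as a whole had 0 of 25 called by limma (6 with an unadjusted p under 0.05) and a median of -0.06, with 20 of 25 below 0. Of 12 tenocyte markers Kera was the 1 called; Angptl7 lay at -0.49 (adjusted p = 0.148). BMP ligands and antagonists had 0 of 22 called (4 with an unadjusted p under 0.05) and a median of -0.04, with Gdf10 at -0.40 (adjusted p = 0.0831). Adipogenic genes had 0 of 24 called (1 with an unadjusted p under 0.05), a median of -0.04 and 19 below 0. With pA-VMO, against the same control arrays, the medians were -0.08 for Dpp4-type markers, -0.09 for these proteoglycans and -0.07 for FAP markers. They were -0.03 for Wnt antagonists, -0.01 for BMP genes and 0.04 for adipogenic genes. Efhd1, Angptl7, Gdf10 and Lum lay at -0.45, -0.69, -0.37 and -0.19 with pA-VMO, and Dkk1 at 0.03.

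Few genes of scar matrix were called. Of 38 tested collagens limma called 0 (3 with an unadjusted p under 0.05), with a median of 0.01 and a range of -0.14 to 0.31. Col1a1 lay at 0.04 (95% interval -0.11 to 0.19) and Col3a1 at -0.03 (-0.18 to 0.12). Among 31 matrix glycoproteins Tnc, the gene of the injury-induced protein tenascin C, was the 1 called. It lay at 11.86 and 11.87 with control VMO and at 12.24 on both 5'ss-VMO arrays and rose by 0.38 (adjusted p = 0.0386). The TGF-beta pathway list had 0 of 21 called (1 with an unadjusted p under 0.05) and a median of -0.02, with Tgfb3 at 0.26 (adjusted p = 0.162). Of 21 matrix proteases and inhibitors 0 were called (5 with an unadjusted p under 0.05); the collagenase gene Mmp13 lay at -0.60 (adjusted p = 0.0983). Adamts6, a related protease outside that list, rose by 0.54 (adjusted p = 0.0272), and Meox1, a homeobox factor of mesenchymal cells, by 0.65 (7.26 and 7.17 to 7.82 and 7.91, adjusted p = 0.0151).

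The targeted receptor and its partners gave 0 calls among 10 genes with limma (2 with an unadjusted p under 0.05), with a median of 0.10. Pdgfra lay at 11.37 and 11.24 with control VMO and at 11.31 and 11.29 with 5'ss-VMO (95% interval of the change -0.16 to 0.15). Since 1 probe set summarises the whole gene, the balance of short and long transcripts is not visible in it and the action of the reagent could not be checked. The sister receptor Pdgfrb lay at 0.14 (-0.02 to 0.3). Of the ligands, Pdgfc lay at 0.38 (8.19 and 7.96 to 8.31 and 8.59, adjusted p = 0.21), Pdgfa at 0.17 (adjusted p = 0.305), Pdgfd at -0.18 (0.398) and Pdgfb within -0.17 to 0.17. Immediate early genes and feedback inhibitors, which respond fast to receptor tyrosine kinases, had 0 of 36 called (4 with an unadjusted p under 0.05) and a median of 0.03; Egr2 lay at 0.28 (adjusted p = 0.16) and Dusp6, the ERK phosphatase, at 0.20 (0.243).

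Lists of dividing and contracting cells lay above 0 with few calls. In the G2 and M list 38 of 39 members lay above 0, with a median of 0.22 and 0 called by limma (22 with an unadjusted p under 0.05). In 30 of the 39 both treated arrays exceeded both controls, against 23.2% of all genes. Mki67, the proliferation antigen, lay at 0.57 (adjusted p = 0.0517). In the S phase list all 35 tested members lay above 0, with a median of 0.14, and Hells, a chromatin remodeller of dividing cells, was the 1 called. It rose by 0.49 (6.24 and 6.22 to 6.65 and 6.8, adjusted p = 0.025). The centromere gene Cenpq rose by 0.45 (adjusted p = 0.0318). With pA-VMO the medians of these lists were 0.22 and 0.19, next to 0.22 and 0.14 with 5'ss-VMO, and both comparisons use the same control arrays. Contractile genes had 25 of 26 members above 0, a median of 0.19 and 0 called (16 with an unadjusted p under 0.05). The smooth muscle actin gene Acta2 lay at 11.06 and 11.45 on the 5'ss-VMO arrays, against 10.84 on both control arrays (adjusted p = 0.178). With pA-VMO the median of the contractile list was 0.13, against the same controls, and Acta2 lay at 11.11 and 11.24. The mean level of the G2 and M list was 6.86 and 6.81 with control VMO and 6.96 and 7.15 with 5'ss-VMO, with 5'ss-VMO replicate 2 the higher.

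Single genes of other muscle cells rose too. Chrna1, the acetylcholine receptor subunit of muscle, went from 6.54 and 6.66 to 7.35 and 7.08 and rose by 0.62 (adjusted p = 0.0283). Asb5, a ubiquitin ligase adaptor of muscle, rose by 0.57 and Agrn, whose product agrin clusters that receptor, by 0.45. Neither Asb5 nor Agrn is in a marker list. Satellite cell and myoblast markers had 1 of 19 called and a median of 0.12, with 14 above 0 and 5 below. Their mean level was 6.68 and 6.77 with control VMO, 6.93 and 6.82 with 5'ss-VMO, and 6.7 and 6.73 with pA-VMO. Muscle fibre markers had a median of 0.04, with 15 above 0 and 7 below. The fusion gene Mymk lay at 0.43 (adjusted p = 0.0948) and Myh3, the embryonic myosin, at 0.43 (adjusted p = 0.111), both near or below 0 with pA-VMO (-0.07 and -0.12). Cdh5, the cadherin of endothelial junctions, rose by 0.70 (6.59 and 6.54 to 7.24 and 7.27, adjusted p = 0.00551). It was the 1 called of 20 endothelial markers, whose median was 0.02, with 11 above 0 and 9 below. Pecam1 lay at 0.47 (adjusted p = 0.0517), while Vwf lay at -0.16 (adjusted p = 0.398). Mcam, of pericytes and endothelium, rose by 0.42 (adjusted p = 0.0443). Lymphocyte, dendritic cell, neutrophil, muscle fibre, Schwann cell and erythroid markers had 0 calls of 13, 9, 5, 22, 12 and 2 tested (1, 1, 2, 6, 3 and 1 with an unadjusted p under 0.05). Gzmb, the granzyme of cytotoxic lymphocytes, lay at 0.54 (adjusted p = 0.0543). The part of cells other than FAPs in these values was not tested.

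The named genes called higher that remain are in no list, and some, such as Plscr2 and Tnfsf10, belong to families known to respond to interferon. Plscr2, a phospholipid scramblase, rose by 0.71 (7.13 and 6.99 to 7.74 and 7.8, adjusted p = 0.0102) and Plac8 by 0.64 (9.13 and 9.12 to 9.72 and 9.81, adjusted p = 0.00802). Parp11, an ADP-ribosyltransferase, rose by 0.62 and Tnfsf10, the gene of the death ligand TRAIL, by 0.51 (5.41 and 5.6 to 5.99 and 6.05). Tor3a, a torsin ATPase, and Il18bp, which neutralises the cytokine IL-18, rose by 0.41 and 0.39. Genes with other roles rose by similar amounts: the imprinted non-coding RNA Rian by 0.56, Ptprn by 0.58, Pakap by 0.51, the adhesion receptor gene Adgrf5 by 0.48, the mitochondrial assembly gene Cox18 by 0.46 and Odf2l by 0.43. Of these Ptprn lay as high with pA-VMO (7.97 and 7.87) as with 5'ss-VMO (7.85 and 8.11).

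**Figure D5:**
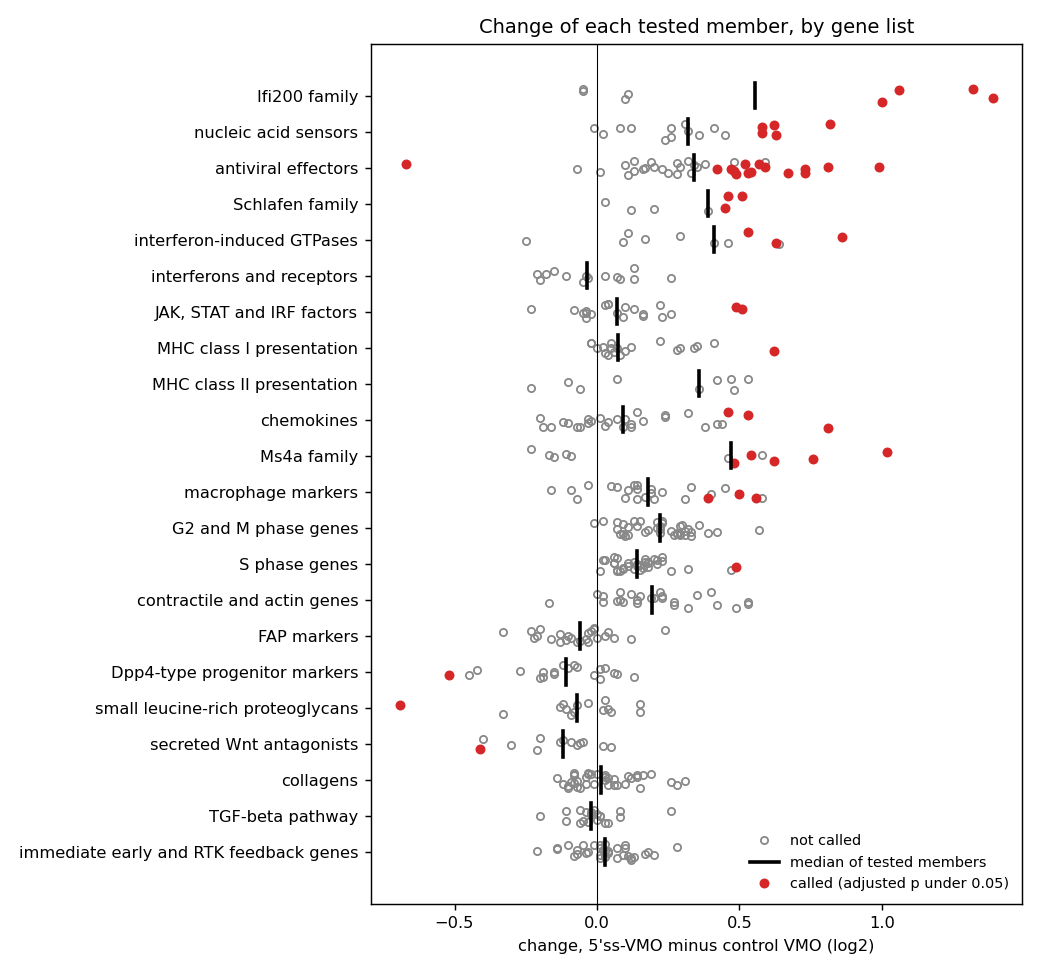
Change of each tested member (5'ss-VMO minus control VMO, log2), by gene list; filled red points are called genes and black bars are medians over the tested members. The interferon-linked lists at the top have medians of 0.32 to 0.56, while collagens and the TGF-beta pathway centre on 0. The lists were chosen with earlier results of these data known.

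The values were next set against those of the other reagent. Between pA-VMO and control VMO limma called 1 gene (0.00669%), Kera, which fell by 1.32 (adjusted p = 0.0232), and 1712 had an unadjusted p under 0.05. Of all genes 9 (0.0602%) differed between 5'ss-VMO and pA-VMO, 7 of them higher with 5'ss-VMO (0.0468%). Ifi208 showed the widest gap among the interferon-linked genes: with pA-VMO it lay at 6.37 and 6.59, 0.02 above control, which left a gap of 1.30 ± 0.1 to 5'ss-VMO (adjusted p = 0.00533). Ifi206 differed by 0.77 (adjusted p = 0.00677), Phf11a and Ifit3b by 0.73 each (adjusted p = 0.0433 for both), Lrrn1, which codes for a membrane protein with leucine-rich repeats, by 0.72 (0.0212) and Ms4a4c by 0.65 (0.0249). Of these, Lrrn1 had passed the floor only through its 5'ss-VMO arrays. The rest of the genes called higher did not pass this test. All 75 had a higher mean with 5'ss-VMO than with pA-VMO. They were chosen as high on the same 5'ss-VMO arrays, so that direction was favoured in advance and lends no support. Ms4a6d was alike in both, at 6.25 and 6.31 with 5'ss-VMO and 6.25 and 6.29 with pA-VMO (difference 0.00 ± 0.074). The median change of the 5 interferon-linked lists was 0.35 with 5'ss-VMO and 0.07 with pA-VMO, against the same controls, and the median difference between the reagents was 0.23, with 4 of 80 members called. Without pA-VMO replicate 1 the number of genes that differed was 1, without pA-VMO replicate 2 it was 12, without 5'ss-VMO replicate 1 it was 3 and without 5'ss-VMO replicate 2 it was 18.

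A few genes set the reagents apart in another way. Saa3, an acute-phase serum amyloid, lay at 8.02 and 8.6 with control VMO, 8.78 and 8.93 with 5'ss-VMO and 7.3 and 7.54 with pA-VMO. It differed by 1.43 ± 0.163 between the reagents (adjusted p = 0.0249) and not by the test between 5'ss-VMO and control (0.54, adjusted p = 0.212). Kcnk9, a potassium channel gene, lay at 5.23 and 5.21 with 5'ss-VMO and 5.76 and 5.69 with pA-VMO, a difference of -0.51 (adjusted p = 0.0433), with the controls between at 5.46 and 5.49. Kera lay lower with pA-VMO than with 5'ss-VMO, at 6.52 on both arrays, a difference of 0.63 ± 0.12 that did not pass the test (adjusted p = 0.0717). Among the other genes that fell, Dpp4, Cyp2f2 and Anxa8 had pA-VMO values close to those with 5'ss-VMO: -0.45, -0.46 and -0.64 against control.

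Some of the called genes lay close to one another along the chromosomes. Of the 87 called genes 32 (36.8%) had another called gene among the 5 nearest tested genes on either side, against 4.47% of the genes not called. These 32 form 12 runs, most of them gene families that arose by duplication, whose probes may overlap in what they read. The longest holds Ms4a4c, Ms4a6c, Ms4a6b, Ms4a4d and Ms4a6d on chromosome 19; others hold the 4 Ifi200 genes on chromosome 1, the Oas genes on chromosome 5, Ifit2, Ifit3 and Ifit3b on chromosome 19, and Slfn9, Slfn8 and Slfn10-ps on chromosome 11. Cxcl9 with Cxcl11, Gbp9 with Gbp4, C1qc with C1qa and Trim30a with Trim30d form pairs. In a pair on chromosome 6 the 2 genes moved apart: Chl1 fell by 0.67 and Lrrn1 rose by 0.91 (4.93 and 4.87 to 5.85 and 5.77, adjusted p = 0.00239). Lrrn1 was tested only because its 5'ss-VMO arrays lifted its mean over the floor.

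The largest change of any gene was that of a small nucleolar RNA, a class that guides chemical modification of ribosomal RNA and is often spliced out of host gene introns. Snora44, singled out after its values were seen, lay at 9.84 and 10.46 with control VMO, 10.14 and 10.2 with pA-VMO, and 8.25 and 7.81 with 5'ss-VMO. It fell by 2.12 ± 0.19 (4.35-fold lower, adjusted p = 0.00342) and differed from pA-VMO by -2.14 ± 0.19 (adjusted p = 0.00677). The class did not follow it: of 52 tested small nucleolar and Cajal body RNAs 29 lay above 0, with a median of 0.05, and Snora41 and Snora33 rose by 0.65 each. How well these arrays label such short RNAs was not tested.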

How the data were processed

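RNA of FAPs was measured on Affymetrix Mouse Gene 1.0 ST arrays from 100 ng of total RNA, per the labels' protocols. The authors deposited log2 values made by RMA in Affymetrix Expression Console, per the submitters' processing notes. Its version and settings and a genome build were not given in the sources used here. Because RMA equalises the arrays, a global change in RNA content is invisible, and changes of dim genes are compressed. Of 35556 probe sets 21789 have 1 gene symbol in the platform annotation, 1621 have several and 12146 none; 21698 matched RefSeq by gene ID. For 999 genes with several probe sets the one with the highest mean over the 6 arrays was taken. A model of 3 group means (limma 3.58.1, R 4.3.3; lmFit, contrasts.fit, eBayes) was fitted to all 6 arrays without a block, with 3 residual and 6.06 prior degrees of freedom, two-sided, with Benjamini-Hochberg adjustment over 14953 genes. An exact permutation of 2 against 2 arrays cannot go below p = 0.333. The labels say that arrays of a group are separate pools of mice. The steps were tested on simulated data. Precision is limited by the number of arrays. No scan dates were used.

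The members and the 39 gene lists (873 genes, 800 on the array, 723 tested) were chosen with earlier results of these data known. Named were the PDGF ligands and receptors, called genes, up to 4 members of each list with the smallest p, and up to 12 genes per direction called between the reagents; 5 called genes were predicted genes or small RNAs outside that rule, of which Snora44, Snora41 and Snora33 are named by their values. Further list members (for example Ifnar1, Cxcl10, Ifi207 and Mavs) are named for their role, after their values were seen. Alternatives tried were other filters, other variance priors, the 4 arrays alone, the mean of a gene's probe sets, the replicate number as a block, leaving out each array, and, chosen after seeing the data, other sets of probe sets in the fit.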

Additional observations from a re-analysis of the deposited data

Results flagged for a closer look

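Probe sets annotated to several genes were left out of the comparisons, and some of them were called too, as a fit chosen after seeing the data showed. When the 969 of them above the floor were added to the fit, 22 (2.27%) were called between 5'ss-VMO and control VMO with limma at an adjusted p under 0.05, 20 higher and 2 lower, next to 83 of 16374 probe sets with 1 symbol (0.507%) in the same fit. They are not named here because a probe set of several genes does not say which of them changed.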

How the results depend on the processing

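The counts of calls depend on the filter and on the variance prior. The direction of each named called gene stayed the same under every alternative in which it was tested. That was fixed in advance for nearly all of them and lends no support. Filters, variance priors, the compared arrays alone and the replicate block leave the difference of group means unchanged. With 1 array left out no sign could turn, because the arrays of the groups did not overlap in any call. Averaging probe sets could alter only 1 call, the one with several probe sets. The 75 higher, 12 lower and 29 interferon-linked calls, and the 9 genes that differed between the reagents, became 22, 2, 13 and 3 with no filter on dim genes, and 200, 66, 49 and 197 with an intensity trend in the prior. With genes at or above the median level there were 141 higher, 40 lower and 102 between the reagents. With all probe sets fitted together limma called 0 higher and 0 lower, where 1793 of 16374 probe sets with 1 symbol had an unadjusted p under 0.05. The mean of a gene's probe sets gave 15 genes between the reagents. The cause was not tested. With 1 array left out, where the lone array is assumed to vary like the other groups, the ranges were 7 to 36 higher, 1 to 8 lower, 5 to 10 interferon-linked and 1 to 18 between the reagents. The replicate numbers share no more than a number: replicate differences correlated between groups at -0.1, 0.02 and -0.03. A fit with the replicate block gave 80 higher, 10 lower, 31 interferon-linked and 23 between the reagents. The other settings stayed within 1.5 times these counts.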
